A study of Mus musculus with 11 samples.

Results

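Interferon-stimulated genes were followed in the descending aorta of old mice, as a list of 38 genes that cells transcribe when interferon binds its receptors. The genes were chosen by name, and a gene counted as measured when a non-control spot of the array carried that name. Of the 38 genes, 37 had a probe and 33 were detected, among 18293 gene names detected in all. All mice were male C57BL/6 animals of 20 months of age from a commercial breeder, without a transgene. The old nitrate group held 5 mice that drank water with 1 g/L sodium nitrate (NaNO3) for 8 weeks. The old control group held 6 mice whose labels give only the agent control and call the arrays a re-analysis of earlier samples. The study's methods state sodium chloride at an equal concentration for controls, so housing and time of treatment cannot be told apart from nitrate. The study's methods state 6 mice per group, and 1 more nitrate treated mouse is not analysed here. RNA came from whole aorta, so fewer cells of a type and less RNA per cell cannot be told apart.

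Type I interferons bind a receptor pair on nearly every cell and activate the kinases Jak1 and Tyk2. The signal reaches a complex with Stat2 and Irf9, which binds interferon-stimulated response elements in the promoters of its target genes. Interferon gamma acts through its own receptor, Jak1 and Jak2, and on genes with gamma-activated sites. The products sense viral nucleic acid, block viral translation and entry, or damage vacuoles that hold microbes, and in the vessel wall they are made by endothelial cells, smooth muscle cells and resident macrophages alike.

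RNA of each mouse was labeled with Cy3 and hybridized to 1 array, and all values below are quantile normalized log2 signals of 1 probe per gene. They compare mice for the same gene and not 1 gene with another. All 10 smooth muscle markers and all 10 endothelial markers were detected. The 11 arrays lay on 3 slides. Control 1, control 2, nitrate treated mouse 1 and nitrate treated mouse 2 shared slide 1. Column 3 of the slides held all 6 control arrays and none from nitrate treated mice, so that position and treatment cannot be told apart. The array of control 1 stood apart from the rest, with a mean correlation of 0.985 with the other arrays, against 0.990 to 0.993 for the other 10. Main results are therefore also given without control 1. They are given as well without both control 1 and nitrate treated mouse 2. That pair was picked after the listed genes had been seen to be high in both mice, so P values without it are descriptive only.

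Promoters of 28 of the 38 genes were found by symbol in a RefSeq table of build GRCm38.p6, each with 250 bases before and 50 bases after the start of the gene. The core of the interferon-stimulated response element, GAAANNGAAA on either strand, occurred in 16 of these 28 promoters (57.1%) and in 3.99% of the promoters of all 27025 symbols. The gamma-activated site TTCNNNGAA, which reads the same on both strands, occurred in 9 of 28 (32.1%) and in 9.55% of all symbols. A match describes the letters and is not a measured binding site. The stretch from 160 to 41 bases before the start is shown for the genes on which the results turn, 5′ to 3′ on the strand of the gene, with capitals for matches of the response element core in either orientation. Isg15, whose 3 matches overlap, lies on the minus strand (chr4:156200859-156200978) and Rsad2 on the minus strand (chr12:26456493-26456612). Ifit1 (chr19:34640729-34640848), Ifit3 (chr19:34583369-34583488) and Trim25 (chr11:88999243-88999362) lie on the plus strand. Trim25, the gene with the lowest P value among those with lower signal after nitrate, has no match in its window.
Isg15: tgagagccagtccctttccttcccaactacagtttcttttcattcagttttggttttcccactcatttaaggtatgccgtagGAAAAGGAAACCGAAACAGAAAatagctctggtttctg
Ifit1: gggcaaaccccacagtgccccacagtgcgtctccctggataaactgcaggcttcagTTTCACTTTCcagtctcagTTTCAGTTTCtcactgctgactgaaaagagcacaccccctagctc
Ifit3: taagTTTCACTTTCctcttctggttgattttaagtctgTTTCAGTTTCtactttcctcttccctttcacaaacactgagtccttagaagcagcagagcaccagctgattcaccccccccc
Rsad2: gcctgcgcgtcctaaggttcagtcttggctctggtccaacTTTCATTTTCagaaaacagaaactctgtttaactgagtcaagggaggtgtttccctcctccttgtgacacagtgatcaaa
Trim25: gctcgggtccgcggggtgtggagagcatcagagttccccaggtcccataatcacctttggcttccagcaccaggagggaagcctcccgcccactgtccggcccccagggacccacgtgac

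Few of the interferon-stimulated genes differed between nitrate treated mice and controls beyond the spread between mice. Ifit3 was higher and Trim25 lower at an unadjusted P value under 0.05 in limma, 2 of 33 detected genes, where 14.5% of all 18293 detected gene names passed the same rule (8.04% higher and 6.43% lower). No gene of the list passed after Benjamini-Hochberg adjustment over all 23630 detected probes, where 0.0127% of the probes passed, and the smallest adjusted P value of limma was 0.245. With a fold change above 1.2 required as well, 1 of 33 genes passed (Ifit3), against 8.89% of all names. Signals did not overlap between the groups for 1 of 33 genes, Trim25, against 2.94% of all names. The median log2 difference over the 33 genes was 0.05, beside 0.02 over all names, and 24 of 33 genes (72.7%) had a higher mean in nitrate treated mice, beside 54.6% of all names. Without nitrate treated mouse 2 the median turned to -0.04 and 10 of 33 genes were higher, and without control 1 it was 0.12 with 27 of 33 higher. Without both it was 0.07 with 24 of 33 higher, and among single mice left out only nitrate treated mouse 2 turned the sign. Ifit3 alone passed without nitrate treated mouse 2, nitrate treated mouse 3 or control 3, where 9.87%, 12.3% and 13.8% of names passed. When control 1 was left out, 5 of 33 genes passed, where 12% of names did. Of these 5, Ifit3 and Trim25 did not overlap, beside 3.42% of all names. The median 95% confidence interval reached 0.37 log2 units to either side of the difference, which is the precision that 11 arrays gave for a typical gene of the list.

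**Figure D1:**
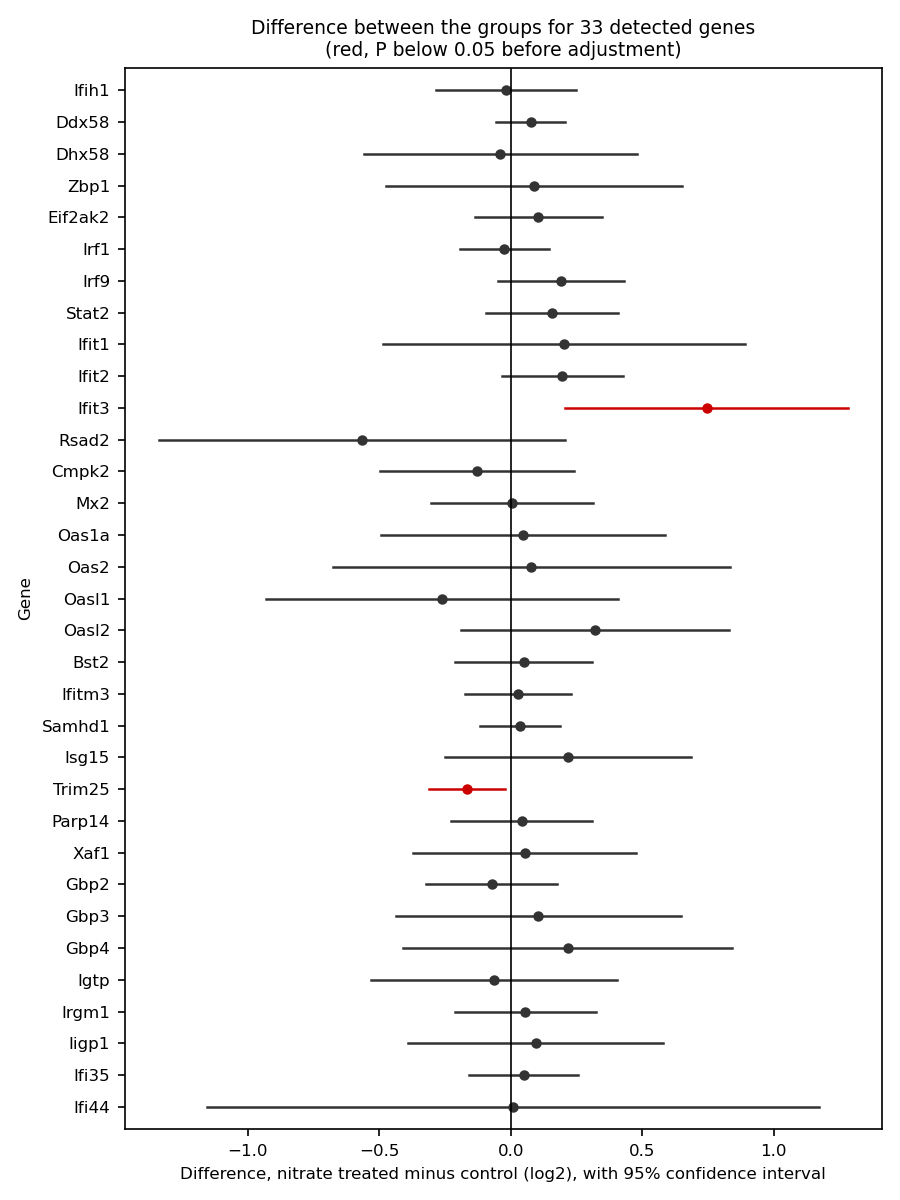
Difference between the groups for each of 33 detected interferon-stimulated genes (horizontal axis, log2 signal of nitrate treated mice minus controls, points with 95% confidence intervals of limma), in the order of their roles. The intervals of Ifit3 (0.21 to 1.28) and Trim25 (-0.31 to -0.02), in red, leave out 0, and those of the other 31 genes hold it.

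Proteins of the Ifit family bind foreign RNA and hold back its translation. The log2 signal of Ifit3 was 9.58, 10.15, 9.44, 9.41 and 9.40 in nitrate treated mice 1 to 5. In controls the lowest signal was 8.37, the median 8.63 and the highest 9.75. Every nitrate treated mouse lay above 5 of the 6 controls, and control 1 alone reached into their range. The means were 9.60 ± 0.32 (SD, n = 5) and 8.85 ± 0.54 (SD, n = 6), a log2 difference of 0.74 with a standard error of 0.25, or 1.68-fold (limma P = 0.0106, adjusted P = 0.245, two-sided exact permutation P = 0.0368). Ifit3 passed the unadjusted threshold of limma with each of the 11 arrays left out in turn, with log2 differences of 0.61 to 0.92. The two-sided exact permutation P then ran from 0.00794 without control 1, when the groups did not overlap, to 0.0873 without control 3, 4, 5 or 6, and was above 0.05 as well without nitrate treated mouse 1, 2 or 3. Without both control 1 and nitrate treated mouse 2, picked after their values had been seen, the difference was 0.79 (exact permutation P = 0.0159, adjusted P of limma 0.284). Within slides it was 0.35 on slide 1, 0.85 on slide 2 and 0.95 on slide 3. With slide as a block it was 0.70 (adjusted P = 0.107 in limma).

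The Ifit3 probe lies on chromosome 19 at 34663105 to 34663164 of mm9, the build named in the files. A near-identical copy of the gene, named I830012O16Rik in the files and Ifit3b in RefSeq, was measured by a probe of its own and is on a wider list of interferon-stimulated genes. Since transcripts of near-identical genes can bind the same probe, both values are uncertain as to which copy they measure. The I830012O16Rik signal was 7.80, 8.56, 7.41, 7.50 and 7.41 in nitrate treated mice 1 to 5 and ran from 6.43 to 7.64 with a median of 6.72 in controls. Its order of mice was like that of Ifit3, with nitrate treated mouse 2 highest and controls 1 and 2 above the other controls. The log2 difference was 0.83 with a standard error of 0.26 (limma P = 0.00723, adjusted P = 0.218, two-sided exact permutation P = 0.0260). The other 2 Ifit genes on the list did not pass. Ifit2 had a log2 difference of 0.20 (95% confidence interval -0.03 to 0.43) and Ifit1 one of 0.20 (-0.49 to 0.89), which was 0.40 without control 1 and 0.17 without both mice. The Ifit1 difference turned slightly negative without nitrate treated mouse 2 alone.

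**Figure D2:**
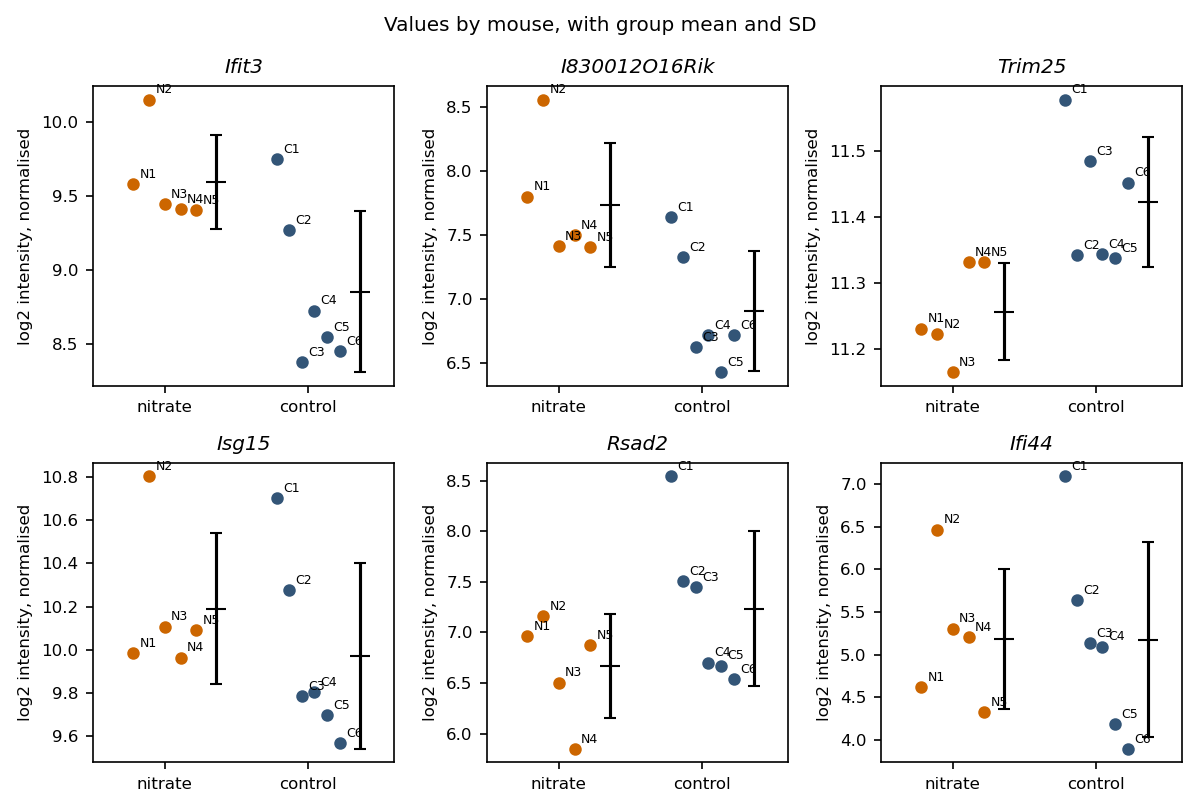
Quantile normalized log2 signal by mouse for 6 genes (N, nitrate treated mice 1 to 5, C, controls 1 to 6), with the mean and SD of each group as a bar beside the points. For Ifit3 and I830012O16Rik the nitrate treated mice lie above all controls but control 1, for Trim25 they lie below all controls, and for Isg15, Rsad2 and Ifi44 control 1 is the highest control.

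Rsad2 encodes viperin, which makes a chain-terminating nucleotide, and its neighbor Cmpk2 encodes a mitochondrial nucleotide kinase. The Rsad2 signal was 6.96, 7.16, 6.50, 5.85 and 6.88 in nitrate treated mice 1 to 5 and ran from 6.54 to 8.55 with a median of 7.08 in controls. Its difference was the most negative of the list, at -0.57 with a standard error of 0.35, and did not pass (limma P = 0.136, two-sided exact permutation P = 0.199). Control 1 lay at the top of this range and nitrate treated mouse 4 at the bottom. Within slides the difference was -0.97, -0.12 and -0.70, and with slide as a block it passed the unadjusted threshold at -0.65 (adjusted P = 0.251 in limma). Without control 1 the difference was -0.30, and without both control 1 and nitrate treated mouse 2 it was -0.43, and neither passed. Cmpk2 differed by -0.13 (95% confidence interval -0.50 to 0.24), by -0.01 without control 1 and by -0.10 without both mice. Rsad2 and Cmpk2 both lay further below controls without nitrate treated mouse 2 alone.

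Isg15 is a ubiquitin-like protein that is joined to other proteins, Usp18 takes it off again and dampens interferon signalling, and Trim25 is a ubiquitin ligase that activates the RNA sensor Ddx58. The Trim25 signal was 11.23, 11.22, 11.16, 11.33 and 11.33 in nitrate treated mice 1 to 5. In controls the lowest was 11.34, the median 11.40 and the highest 11.58. All nitrate treated mice thus lay below all controls, by a gap narrower than the spread within either group. The means were 11.26 ± 0.07 (SD, n = 5) and 11.42 ± 0.10 (SD, n = 6), so that Trim25 fell by 0.17 on the log2 scale, with a standard error of 0.07 and a fold of 1.12 (limma P = 0.0284, adjusted P = 0.308, two-sided exact permutation P = 0.00866). In limma the unadjusted call was lost when nitrate treated mouse 1, 2 or 3 or control 3 was left out, with log2 differences of -0.16, -0.16, -0.14 and -0.15, and without both control 1 and nitrate treated mouse 2, at -0.13. It was lost as well with scaling to the 75th percentile and with the replicate block, at -0.16 each, and the groups overlapped with that scaling and with the normexp background. The exact permutation P lay between 0.00794 and 0.0286 with each array left out in turn. Within slides Trim25 differed by -0.23, -0.23 and -0.08.

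The Isg15 signal was 9.98, 10.80, 10.11, 9.96 and 10.09 in nitrate treated mice 1 to 5 and ran from 9.57 to 10.70 with a median of 9.80 in controls. Nitrate treated mouse 2 and control 1 were the highest mice, and the groups overlapped. The log2 difference of 0.22 had a 95% confidence interval of -0.25 to 0.68. It was 0.36 without control 1 and 0.21 without both of these mice, and smaller than either without nitrate treated mouse 2 alone. Parp14, a mono-ADP-ribosyltransferase, and Xaf1, a promoter of cell death, differed by 0.04 and 0.05. Without control 1 these values were 0.10 and 0.20, and without both mice 0.04 and 0.09. Both turned slightly negative without nitrate treated mouse 2 alone. Usp18 rose well above background on each of the 11 arrays, yet its spot was called found on 3 nitrate and 1 control arrays, so it is not among the detected genes. Its signal averaged 7.27 ± 0.38 (SD, n = 5) after nitrate and 7.08 ± 0.58 (SD, n = 6) in controls.

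The sensors of viral nucleic acid were detected for all 5 listed genes, and none passed. They comprise the RNA helicases Ddx58, Ifih1 and Dhx58, the sensor of Z-form nucleic acid Zbp1, and Eif2ak2, a kinase that shuts down translation. Ddx58 varied little, with 9.41, 9.53, 9.41, 9.43 and 9.45 in nitrate treated mice 1 to 5 and 9.26 to 9.44 with a median of 9.41 in controls. Its difference of 0.08 had a 95% confidence interval of -0.05 to 0.21. The differences of the 5 sensors lay between -0.04 in Dhx58 and 0.11 in Eif2ak2. Without control 1 they lay between 0.05 in Ifih1 and 0.27 in Zbp1, where Dhx58 turned to 0.11 and Ifih1 from -0.02 to 0.05, and without both mice between -0.03 and 0.08. When nitrate treated mouse 2 alone was left out, Zbp1 turned negative and Ifih1 and Dhx58 fell further below controls. Ddx58 and Eif2ak2 then stayed higher in nitrate treated mice. None passed in any of these cases, and Zbp1 and Dhx58 ranged widely among mice, 2.58-fold and 3.21-fold between the highest and the lowest.

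Among transcription factors, Stat2 and Irf9 form the complex that binds the response element, and Irf1 and Irf7 carry the response further. Irf9 differed by 0.19 (95% confidence interval -0.05 to 0.43), Stat2 by 0.16 (-0.09 to 0.41) and Irf1 by -0.02 (-0.19 to 0.15). The Irf1 signal was 10.45, 10.70, 10.41, 10.62 and 10.64 in nitrate treated mice 1 to 5 and ran from 10.43 to 10.75 with a median of 10.58 in controls, so that the groups overlapped over most of their range. With each array left out in turn the Irf1 difference ran from -0.06 to 0.01, and it turned above 0 without nitrate treated mouse 1, nitrate treated mouse 3 or control 2. Without control 1, Irf9 passed the unadjusted threshold of limma with a difference of 0.26, as did Ifit2 with 0.25, Oasl2 with 0.48, Ifit3 and Trim25, 5 of 33 genes where 12.0% of all names passed. The exact permutation P without control 1 was 0.0317 for Irf9, 0.0556 for Ifit2 and 0.0714 for Oasl2. Without both control 1 and nitrate treated mouse 2, Irf9 and Ifit3 passed, 2 of 33 genes where 8.93% of names did, and without nitrate treated mouse 1 Stat2 and Ifit3 passed, where 12.1% did. Irf7 stayed outside the detected genes in the same way, with its spot called found on 4 nitrate and 3 control arrays. It measured 6.13 ± 0.47 (SD, n = 5) and 6.61 ± 0.86 (SD, n = 6), with control 1 at 8.27 and no other mouse above 6.95.

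The Mx proteins are GTPases that trap viral particles, and the oligoadenylate synthetases make a second messenger that activates an RNA-degrading enzyme. Mx1 and Oas3 were not detected, and none of Mx2, Oas1a, Oas2, Oasl1 and Oasl2 passed, with differences from -0.26 in Oasl1 to 0.32 in Oasl2. Without control 1 these ends were -0.06 and 0.48, and without both mice -0.27 and 0.33. Oasl1 and Oasl2 both had lower differences without nitrate treated mouse 2 alone than with all mice. Oas1a measured 7.96, 8.97, 8.46, 8.22 and 8.15 in nitrate treated mice 1 to 5 and 7.70 to 9.23 with a median of 8.28 in controls. The Oas1a difference of 0.05 had an interval of -0.49 to 0.59, and its highest mice were again nitrate treated mouse 2 and control 1. The difference was 0.23 without control 1, -0.11 without nitrate treated mouse 2 and 0.08 without both. Oas2 did not follow that order, with nitrate treated mouse 1 and control 6 more than 1 log2 unit below their groups' medians.

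The 3 membrane and nucleotide restriction factors had SDs within groups of 0.10 to 0.21 log2 units, and none passed. Ifitm3, which blocks fusion of viral and endosomal membranes, measured 11.99, 12.27, 12.07, 11.97 and 11.81 in nitrate treated mice 1 to 5 and 11.82 to 12.20 with a median of 11.99 in controls. Its difference of 0.03 had an interval of -0.17 to 0.23 and ran from -0.03 without nitrate treated mouse 2 to 0.08 without nitrate treated mouse 5, and was just below 0 without control 5. Bst2, which tethers budding virus to the cell, differed by 0.05, and Samhd1, which breaks down nucleotides needed for viral DNA synthesis, by 0.03. Without control 1 the Bst2 difference was 0.12, and without both mice it was 0.03. It turned slightly negative without nitrate treated mouse 2 alone.

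The interferon-inducible GTPases, which gather on vacuoles that hold microbes, were detected for all 6 listed genes. Gbp2 measured 9.56, 10.01, 9.75, 9.51 and 9.45 in nitrate treated mice 1 to 5 and 9.50 to 9.98 with a median of 9.69 in controls, a difference of -0.07 with an interval of -0.32 to 0.18. It ran from -0.16 without nitrate treated mouse 2 to -0.02 without nitrate treated mouse 5. The other 5, Gbp3, Gbp4, Igtp, Irgm1 and Iigp1, differed by -0.06 in Igtp to 0.22 in Gbp4, and none passed. Without control 1 Igtp turned to 0.06 and the highest was 0.37 in Gbp4, with 0.27 in Gbp3, and without both mice Igtp was -0.10 and Gbp4 0.17. When nitrate treated mouse 2 alone was left out, Gbp4 was nearly equal between the groups. Gbp3, Igtp, Irgm1 and Iigp1 were then lower in the mean in nitrate treated mice. Of the Ifi genes, Ifi27 had no probe by that name, and a probe named Ifi27l1, which RefSeq gives as an older name of Ifi27, differed by -0.13 (exact permutation P = 0.418). Ifi35 differed by 0.05 (95% confidence interval -0.16 to 0.26). Ifi44 had almost equal group means, 5.18 ± 0.82 (SD, n = 5) and 5.18 ± 1.14 (SD, n = 6), yet the widest range among mice, from 3.90 in control 6, whose spot was not well above background, to 7.09 in control 1. Its difference of 0.01 was 0.39 without control 1 and 0.07 without both mice, and passed in neither case. The Ifi44 difference turned negative, without passing, when nitrate treated mouse 2 alone was left out.

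Differences among mice of the same group were wider in these genes than in others, and many genes shared them. The median SD within groups was 0.31 log2 units over the 33 genes, beside 0.18 over all names. Nitrate treated mouse 2 had the highest signal of its group for 30 of 33 genes, which it had for 17.1% of all names. Control 1 had the highest of its group for 27 of 33 genes, beside 23.0% of all names, and control 6 the lowest for 23 of 33, beside 17.6%. These mice were picked after their values had been seen, so the counts describe them and carry no test.

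The 2 highest of all 11 mice were nitrate treated mouse 2 and control 1 for 21 of 33 genes (63.6%), against 239 of 18281 names (1.31%). The genes of this kind came from every role, among them Ifih1, Irf9, Ifit1, Oas1a, Bst2, Isg15, Gbp4 and Ifi44. On a wider list of 69 other detected interferon-stimulated genes the count was 19 (27.5%), among them Rtp4, Irgm2, Ifi47 and Psmb8, and on a list of 36 detected genes of interferon production and signalling it was 1, Adar. Most of the 239 names, 198, were on none of these lists. Of 113 of those 198 with a promoter entry, 7 (6.19%) held the response element core.

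**Figure D3:**
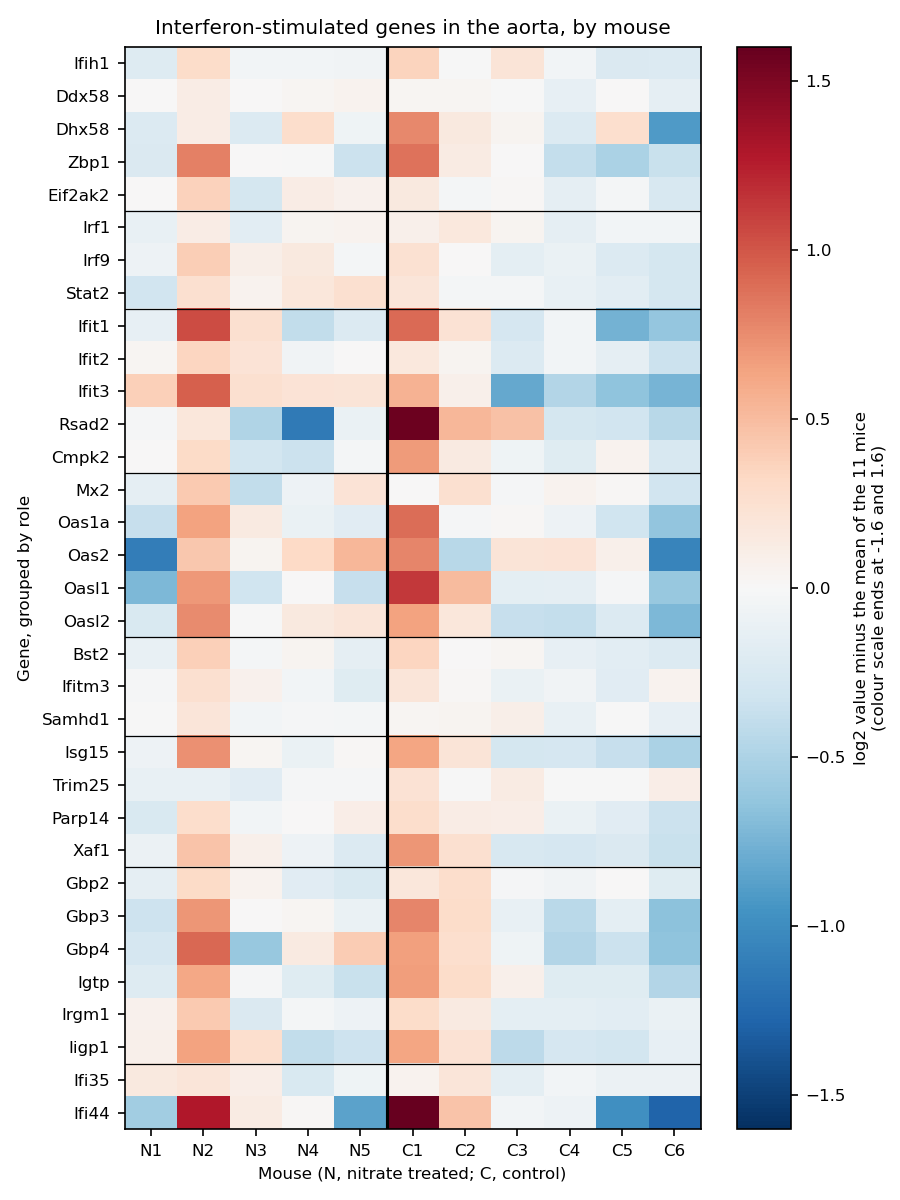
Log2 signal of 33 detected interferon-stimulated genes (rows, grouped by role) in each of 11 mice (columns, N for nitrate treated and C for control), as the deviation from the mean of the gene over the 11 mice. Columns N2 and C1 are red in nearly every row and column C6 is mostly blue, while rows such as Trim25, Samhd1 and Ddx58 are pale.

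The size of the excess also varied by gene. Nitrate treated mouse 2 lay above the median of the other 4 nitrate treated mice in 32 of 33 genes, by a median of 0.47 log2 units (1.39-fold), and control 1 lay above the median of the other 5 controls in 32 of 33 genes, by 0.69 (1.61-fold). The excess was widest for Ifi44, 2.94-fold in nitrate treated mouse 2 and 3.99-fold in control 1. For Ifit1 it was 2.33-fold and 2.25-fold, for Oasl1 2.05-fold and 2.41-fold, and for Ddx58 1.08-fold and 1.02-fold. Rsad2 departed from this balance, with 1.38-fold in nitrate treated mouse 2 and 3.59-fold in control 1. Mx2 was raised in nitrate treated mouse 2 (1.44-fold) with control 1 near the control median (0.99-fold), and Trim25 was raised in control 1 (1.18-fold) and not in nitrate treated mouse 2 (0.96-fold). Across the 33 genes the excess in these mice had a Pearson correlation of 0.78, and across 18291 names one of -0.08. Genes are not independent replicates, and both mice shared slide 1.

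**Figure D4:**
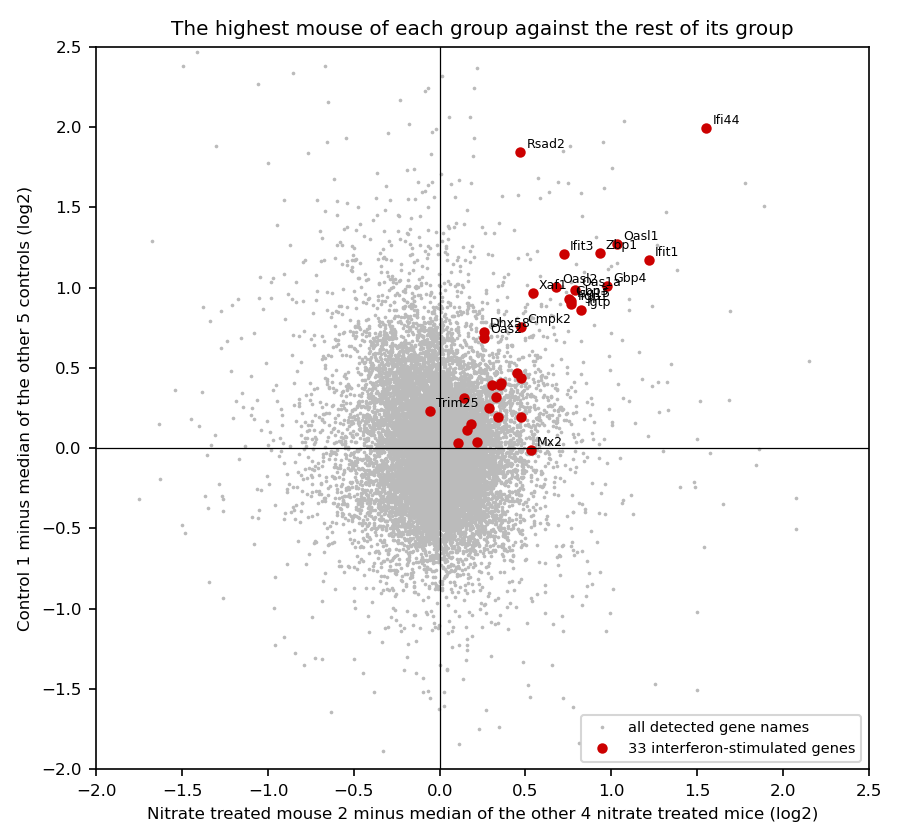
Excess of nitrate treated mouse 2 over the median of the other 4 nitrate treated mice (horizontal axis, log2) against the excess of control 1 over the median of the other 5 controls (vertical axis, log2), for 33 interferon-stimulated genes (red) and all detected gene names (grey, 26 of 18291 outside the axes). The red points lie in the upper right except Mx2 and Trim25, whose excess is just below 0 in 1 of the mice, and the grey cloud is centered near 0.

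Averaged over the 33 genes, the deviation from each gene's mean over the 11 mice was 0.47 in nitrate treated mouse 2 and between -0.16 and -0.05 in the other 4 nitrate treated mice. Among controls it was 0.53 in control 1, 0.14 in control 2, and -0.07, -0.16, -0.20 and -0.40 in controls 3 to 6. Slide 1, which holds both of the highest mice and control 2, also holds nitrate treated mouse 1, which at -0.16 was the lowest of its group. Within slides the direction of the list was not the same, since 10 of 33 genes were higher in nitrate treated mice on slide 1, 25 on slide 2 and 22 on slide 3.

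Markers of blood and immune cells differed among the same mice. Of 17 macrophage markers 15 were detected and none passed, while 14 of these 15 had a higher mean after nitrate, beside 54.6% of all names. Their mean deviation lay between -0.29 and 0.35 in nitrate treated mice and between -0.23 and 0.16 in controls. It was 0.32 in nitrate treated mouse 2 and 0.16 in control 1, but also 0.35 in nitrate treated mouse 3, whose interferon-stimulated genes averaged -0.05. Macrophage markers outside the detected set were Cd5l and Adgre1, which had no probe under that name while its older name Emr1 was detected. T and NK cell markers, 7 of 13 detected without Cd3g, Cd8a, Cd8b1, Trbc2, Ncr1 and Klrb1c, lay between -0.40 and 0.07 in nitrate treated mice and between -0.33 and 0.48 in controls, with control 1 highest. Neutrophil markers, 3 of 7 detected without Ly6g, Retnlg, Cxcr2 and Ngp, lay between -0.55 and -0.16 in nitrate treated mice and between -0.48 and 1.40 in controls, again with control 1 highest. Dendritic cell markers, 3 of 7 detected without Flt3, Xcr1, Cd209a and Clec9a, lay between -0.28 and 0.31 in nitrate treated mice and between -0.35 and 0.19 in controls. Their highest mice were nitrate treated mouse 2 (0.31) and control 1 (0.19). Control 1 also stood at 0.91 for Cd79b, the only detected one of 7 B cell markers, at 0.42 for adipocyte markers, at 0.77, the highest of all mice, for brown adipocyte markers, and at -0.41, the lowest of all mice, for smooth muscle markers. Its striated muscle markers stood at 2.49, and those of nitrate treated mouse 4, whose interferon-stimulated genes averaged -0.05, at 2.88.

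Of the cell type markers, some passed the unadjusted threshold between the groups, beside 8.04% of all names higher and 6.43% lower. Cd2, a surface protein of T cells and the only one of 7 detected T and NK cell markers to pass (3 of 7 were higher), was lower after nitrate by 0.73 without overlap of the groups (exact permutation P = 0.00216, adjusted P of limma 0.0940), S100a9 of neutrophils by 0.88 (exact permutation P = 0.0606, adjusted P of limma 0.345) and Cd79b of B cells by 0.81 (exact permutation P = 0.0195, adjusted P of limma 0.221). All 10 adipocyte markers were lower in the mean, 5 of them past the unadjusted threshold of limma, and 9 of 10 smooth muscle markers were higher, 2 of them past it. All 8 fibroblast markers were higher, 2 past it. Of 10 endothelial markers 5 were higher and 2 passed, Vwf upward and Robo4 downward, and of 7 brown adipocyte markers 3 were higher and 2 passed. Over all names 54.6% had a higher mean and 14.5% passed. The part of these cell types in the interferon-stimulated genes was not tested.

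**Figure D5:**
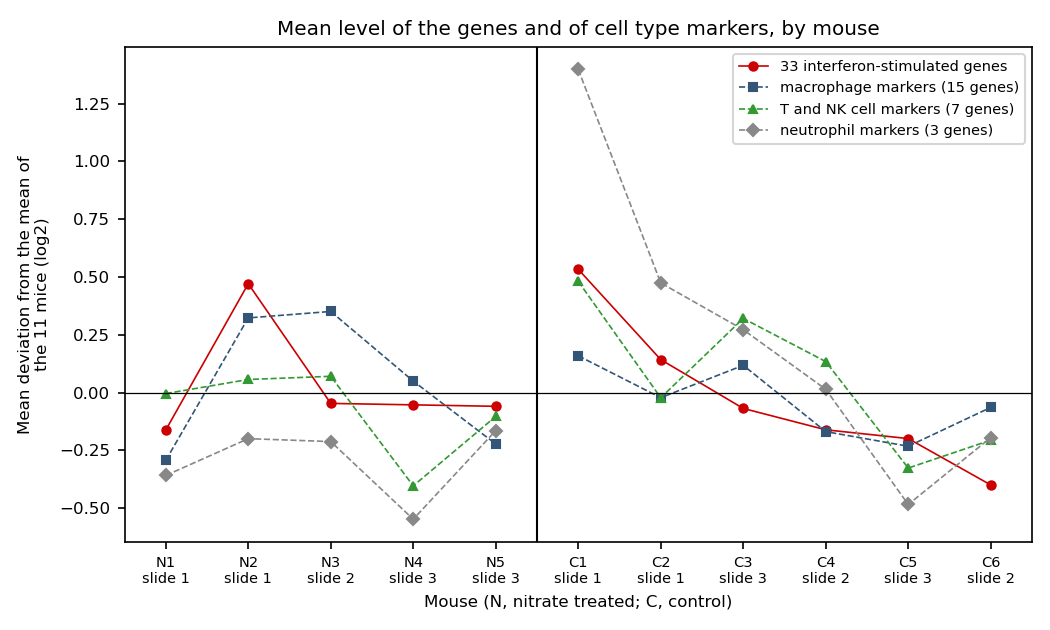
Mean deviation from the mean of the 11 mice (vertical axis, log2) of 33 interferon-stimulated genes and of macrophage, T and NK cell, and neutrophil markers in each mouse (horizontal axis, with its slide). The red line peaks at N2 (0.47) and C1 (0.53), macrophage markers peak at N3 (0.35) and N2 (0.32), and neutrophil markers peak at C1 (1.40).

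Of 99 other interferon-stimulated genes on the wider list, 87 had a probe and 69 were detected. Besides I830012O16Rik, 2 of them were higher and 1 lower at the unadjusted threshold, 4 of 69 in all where 14.5% of names passed. The count was 8 without nitrate treated mouse 1 (12.1% of names passed) or control 1 (12%) and 7 without control 3 (13.8%). Plscr1, a scramblase of membrane lipids, was higher by 0.33 (exact permutation P = 0.00649, adjusted P of limma 0.213), and Tor3a, an ATPase of the endoplasmic reticulum, by 0.21 without overlap of the groups (exact permutation P = 0.00649, adjusted P of limma 0.258). A dimmer detected probe of Tor3a overlapped between the groups and did not pass, at 0.24 (exact permutation P = 0.128), with control 6 its highest mouse. Cxcl9, a chemokine induced by interferon gamma that draws T cells, measured 5.93, 6.00, 6.38, 5.67 and 5.95 in nitrate treated mice 1 to 5 and 6.34 to 7.19 with a median of 6.58 in controls. Nitrate treated mouse 3 alone reached into the control range. Cxcl9 fell by 0.67 on the log2 scale with a standard error of 0.16 (limma P = 0.00126, adjusted P = 0.144, two-sided exact permutation P = 0.00649).

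Genes that make interferon and pass on its signal passed the threshold in both directions, as all gene names did. Of 58 listed, 50 had a probe, 36 were detected and 7 passed the unadjusted threshold, 4 higher and 3 lower. Over all names 14.5% passed, 8.04% higher and 6.43% lower. The smallest adjusted P value of limma for these genes was 0.184. Of the ligands, Ifnb1 and Ifng were not detected, and Ifna1, Ifna14, Ifnab and Il28b were detected without passing. Ifna5 was higher by 0.50 (exact permutation P = 0.0130, adjusted P of limma 0.184), with its probe found on 3 of 5 nitrate and 5 of 6 control arrays, and probes of the near-identical interferon alpha genes can bind each other's transcripts.

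Of the receptors, Ifngr2 was higher by 0.23 (exact permutation P = 0.0130, adjusted P of limma 0.287), while Ifnar1 differed by 0.02, Ifnar2 by -0.07, Ifngr1 by -0.09 and Il10rb by 0.07. The receptor-bound kinases Jak2 and Jak1 passed the unadjusted threshold in opposite directions, each without overlap of the groups. Jak2 measured 10.13, 10.14, 10.23, 10.20 and 10.35 in nitrate treated mice 1 to 5 and 9.84 to 10.11 with a median of 9.97 in controls, a rise of 0.24 (exact permutation P = 0.00433, adjusted P of limma 0.194). Jak1 measured 10.27, 10.29, 10.39, 10.39 and 10.26 in nitrate treated mice 1 to 5 and 10.39 to 10.54 with a median of 10.48 in controls, and fell by 0.16 (exact permutation P = 0.00433, adjusted P of limma 0.274).

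Among genes of interferon production, Ticam1, the adaptor of a receptor for double-stranded RNA, measured 8.32, 8.34, 8.37, 8.20 and 8.38 in nitrate treated mice 1 to 5 and 8.43 to 8.55 with a median of 8.50 in controls. It fell by 0.18 without overlap of the groups (limma P = 0.0107, adjusted P = 0.245), with a two-sided exact permutation P of 0.00216, the smallest that 11 mice allow. Tbk1, the kinase that activates Irf3, was higher by 0.18 (exact permutation P = 0.0346, adjusted P of limma 0.330), and Irf3 itself differed by -0.02. Trex1, a nuclease that clears DNA from the cytosol, was higher by 0.09 without overlap of the groups but did not pass in limma (exact permutation P = 0.00649, adjusted P of limma 0.459). With Jak1, Jak2 and Ticam1 it made 4 of 36 genes without overlap, beside 2.94% of all names. Socs3, an inhibitor of the kinases, fell by 0.35 (exact permutation P = 0.0238, adjusted P of limma 0.272). The other detected genes of this list did not pass, with differences from -0.28 in Irf8 to 0.22 in Irf5.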

How the data were processed

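Total RNA of the descending aorta of 11 old mice was measured on Agilent mouse arrays, 1 array per mouse. For every array the authors deposited the intensities of its spots as Feature Extraction 10.7.1.1 wrote them, with background subtracted and no normalization across arrays, and a table of quantile normalized log2 values centered on each probe's median. The deposited log2 table matched the intensities of every array and served as an alternative. A processed signal under 1 was set to 1, flagged spots were left out, spots of a probe averaged, and log2 values quantile normalized. A probe counted as detected where its spot was called found and lay well above background on 5 or more arrays of a group, and the brightest detected probe stood for a gene. Groups were compared with lmFit and eBayes of limma 3.58.1 in R 4.3.3, fitted over all 23630 detected probes with Benjamini-Hochberg adjustment, and with two-sided exact permutation tests over 462 divisions of the mice. Genes that were not detected take their values from a fit over every probe. The number of arrays limits the precision, and P values set the group difference against the spread between mice. They cannot account for array column or the origin of the controls, which go with treatment.

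The genes, the wider lists and the markers were chosen with earlier results of these data known. Values were given for genes that passed, that did not overlap or that were the brightest of their role, and others were chosen after their values were seen. Positions of probes are those of mm9 in the files, and promoters those of a RefSeq table. The alternatives covered scaling to the 75th percentile, normexp with an offset of 50, an offset of 16, the deposited table, detection rules, flagged spots, the prior, slide and replicate number as blocks, the choice of probe, the call rule and each array left out.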

Additional observations from a re-analysis of the deposited data

Results flagged for a closer look

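Of 68 groups of values examined (each detected gene and the mean over the detected genes, in nitrate treated mice and in controls), 4 held a mouse whose distance from the nearest other mouse took up an unusually large share of the range of its group, where chance gives about 1 in 20 groups, or 3.4. In all 4 it was nitrate treated mouse 2, lying above the other nitrate treated mice. The share was 0.766 for Ifit3, 0.831 for Samhd1, 0.829 for Isg15 and 0.818 for the mean over the 33 detected interferon-stimulated genes. The values are not independent of each other, since the mean includes the 3 genes.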

How the results depend on the processing

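Ifit3 kept its direction and stayed under an unadjusted P of 0.05 in every limma alternative, while the exact permutation P passed 0.05 without some single mice. 1 interferon-stimulated gene passed with scaling to the 75th percentile, where Trim25 fell by 0.16 without passing, and 1 with a fold change above 1.2 required as well. The groups overlapped in all 33 genes (0 without overlap) with that scaling and with the normexp background. They did not overlap in 2 without nitrate treated mouse 2 and control 1 together (4.01% of all names), an alternative chosen after seeing the data. Without a detection filter 7 genes of the wider list passed, and with the fold change required 2 genes of production and signalling did. With single arrays left out, 1 to 5 listed genes passed and 1 to 2 did not overlap, and the median difference ran from -0.04 to 0.12. In the same fits 4 to 8 genes of the wider list passed, and 6 to 8 of production and signalling. Over all names 9.87% to 15% passed and 3.42% to 4.58% did not overlap.

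Deviations from the group mean in mice with the same replicate number had correlations of -0.14 to 0.18. Nitrate treated mouse 2 alone matched the control of its own number best, at 0.12. These few values cannot settle whether the numbers pair mice, so replicate number served only as an alternative. With the replicate block 2 listed genes passed, 1 did not overlap, the median difference was 0.01, and 5 genes passed on each of the other lists. Trim25 did not pass with this block, at -0.16. The share of all names was not taken for the replicate block or for the scaling, background and detection alternatives. Counts under them are therefore not read as results about the listed genes. No gene that passed changed direction. Why these values moved was not tested. Mx1 and Oas3, which were not well above background on most arrays, have no usable comparison at this signal.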
